A study of Arabidopsis thaliana with 12 samples.

Results

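The meristematic zone of Arabidopsis thaliana roots was compared between a line labelled as overexpressing UPB1 and wild-type Col-0, on 4 of the 12 ATH1 arrays of the series. The arrays were chosen by their titles alone, and every non-control probe set on them was considered, 22746 of 22810 in all. The line, called OX here after its label, is 35S::UPB1-3YFP #2 in the upb1-1 mutant background, so its plants differ from Col-0 by the mutation as well as by the transgene. It is 1 transgenic line, driven by the broadly active 35S promoter. Both genotypes are of ecotype Columbia-0. They grew untreated on medium with sucrose to an age of 6 days, and each array holds pooled RNA of about 60 hand-cut roots, labelled after 2 cycles of amplification. There were 2 biological replicates of OX and 2 of Col-0. The other 8 arrays hold the elongation zone of both genotypes and both zones of upb1-1, also with 2 replicates a group.

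UPB1 is a basic helix-loop-helix transcription factor of the root tip, known as a repressor of peroxidase genes at the border where cells stop dividing and begin to elongate. Class III peroxidases act in the cell wall, where they use or make reactive oxygen and can stiffen or loosen the wall. The meristematic zone is the domain of small dividing cells behind the root tip. In the elongation zone cells grow by loosening and extending their walls, and root hairs then emerge from the epidermis.

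Values are linear probe set signals, and changes are differences of log2(signal + 16) with a standard error (SE), which understates the change of dim probe sets. A probe set passed at a Benjamini-Hochberg adjusted p below 0.05 in limma over the 15834 probe sets tested. All p-values below are such adjusted p-values. "Rose" and "fell" are used of OX-labelled arrays relative to Col-0 arrays. Median signals were 64.3 and 65.0 on the OX arrays and 66.8 and 67.4 on the Col-0 arrays. Pearson's r between the replicates was 0.979 in OX and 0.986 in Col-0, a description over probe sets of the same arrays.

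Arrays carry control probe sets at both ends of the GAPDH, actin and ubiquitin transcripts, and the ratio of 3' over 5' signal, which reflects the length of the labelled RNA, differed between the groups compared. Its mean log2 value was 4.21 and 4.12 on the OX meristematic arrays, against 2.16 and 2.27 in the Col-0 meristematic zone. The 2 groups did not overlap and differed by 1.95. For GAPDH alone the log2 ratio was 2.88 and 2.29 on OX arrays and 0.08 and 0.43 on Col-0 arrays. In the elongation zone the mean ratios lay close together, at 3.87 and 4.08 in OX and 3.87 and 3.99 in Col-0. Single controls were less alike there, and GAPDH had group means of 1.98 in OX and 2.48 in Col-0. For actin the group means were 6.91 in OX and 6.29 in Col-0, and for ubiquitin 3.03 and 3.02. The spiked-in BioB control was also dimmer in the meristematic zone, at 74.2 and 63.7 on OX arrays against 258 and 252 on Col-0 arrays. In the elongation zone BioB read 68.1 and 80.7 on OX arrays and 92.4 and 177 on Col-0 arrays, dimmer in OX there too. The spiked-in BioC, BioDn and CreX were also dimmer on both OX meristematic arrays, but overlapped between genotypes in the elongation zone. BioC read 388 and 301 on OX and 563 and 578 on Col-0 meristematic arrays. In the elongation zone it read 218 and 363 in OX and 333 and 513 in Col-0. The ratio moved with genotype in this comparison, so the 2 cannot be told apart on these 4 arrays, and its part in the results below was not tested.

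**Figure D1:**
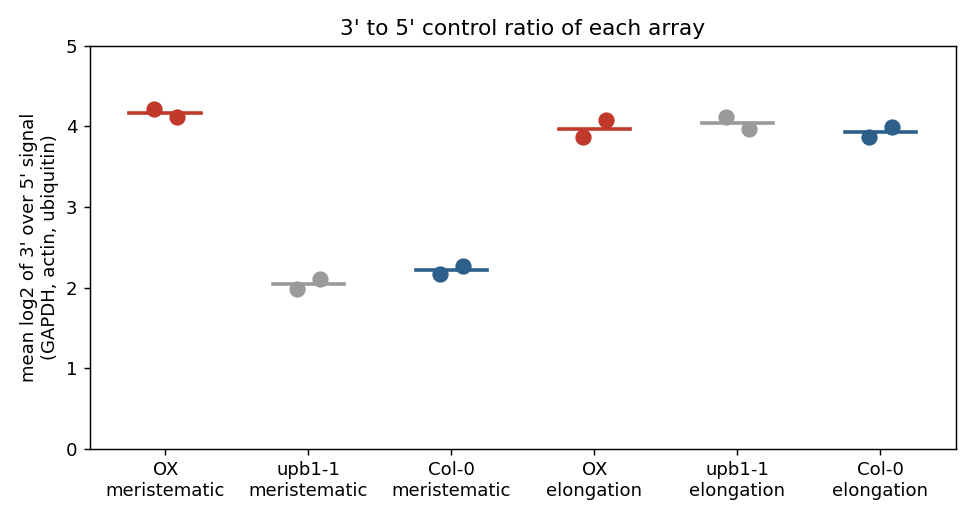
Mean log2 3' to 5' signal ratio of 3 control genes (y axis) on each array, by group (x axis). Points are arrays and bars are group means. The OX meristematic arrays, at 4.21 and 4.12, sit near the 6 elongation arrays, while the other 4 meristematic arrays lie between 1.98 and 2.27.

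The UPB1 probe set (AT2G47270) went against the OX label. It read 28.1 and 55.2 on OX meristematic arrays, against 667 and 528 on Col-0 meristematic arrays. The groups did not overlap, and the difference was -3.44 (SE 0.26, adjusted p = 1.1e-07). It was also low in the elongation zone, at 53.6 and 35.3 in OX against 1379 and 1233 in Col-0. The upb1-1 arrays read 8.53 and 16.8 in the meristematic zone. Whether the probes lie in the part of the gene that the transgene carries was not tested, so the array gives no check of overexpression, and OX below means the arrays labelled so.

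Marker genes were used to set the pieces against their labelled zone. The summed signal of 18 genes of mitosis and cytokinesis was 6269 and 6096 on OX and 5033 and 4967 on Col-0 meristematic arrays, against 2160 and 2314 on OX and 3008 and 2698 on Col-0 elongation arrays. BBM (AT5G17430), which marks stem cells of the root tip, read 102 and 116 in OX and 35.4 and 47.9 in Col-0 meristematic pieces. It was the only 1 of 3 tested genes of the stem cell niche to pass (1.12). CR4, at 0.38, and JKD, at -0.09, did not. Both genotypes thus carried markers of dividing cells, while CYCB1;1, KN and many other usual markers have no probe set named here. Root hair genes were also bright on the Col-0 meristematic arrays. EXPA7 (AT1G12560), an expansin of root hair cells, read 23.1 and 1.91 in OX and 527 and 461 in Col-0. It read 479.9 and 506 in upb1-1 meristematic pieces. The 4 root hair genes tested of 5 on the array had summed signals of 738 and 636 in OX, against 2560 and 2580 in Col-0 meristematic pieces. In elongation pieces the sums were 935 and 1532 in OX and 2522 and 2181 in Col-0. A sum weighs its brightest gene most, so the close sums in the 2 zones of Col-0 do not describe each gene. Changes of the 4 genes in the meristematic zone ran from -4.27 to -1.06. The smallest was that of SCN1, which restricts where hairs emerge and made up most of the OX meristematic sums. In whole pieces of root, fewer cells of a type and less RNA per cell cannot be told apart. The part of tissue makeup in the results below was not tested.

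Of the 15834 probe sets, 7834 (49.5%) passed, of which 4112 (26%) were higher and 3722 (23.5%) were lower in OX. The sizes were uneven. Of all tested probe sets, 96 (0.606%) were higher by at least 2 on the log2 scale, which is 4-fold, while 625 (3.95%) were lower by as much. These counts moved with the pseudocount, to 311 rises and 1050 falls with 1, and to 57 rises and 463 falls with 32. The median over all tested probe sets was 0.10. The arrays of the 2 groups did not overlap for 79.2% of the tested probe sets. The upb1-1 meristematic arrays, set against the same Col-0 arrays, gave 6 calls (0.0379%).

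Among called probe sets that match 1 gene, do not overlap between the groups and exceed the median signal of tested probe sets, 147, in the brighter group, the 12 largest falls included 4 class III peroxidases. PER57 (AT5G17820) was dim in OX, at 11.4 and 8.99, against 3693 and 3269 in Col-0 (-7.06, SE 0.21, adjusted p = 3.0e-11). PER7 (AT1G30870) read 2.09 and 3.35 in OX and 1258 and 1235 in Col-0 (-6.08, SE 0.30, adjusted p = 1.6e-09). PER45 (AT4G30170) read 179 and 84.4 in OX and 6093 and 6465 in Col-0 (-5.49, SE 0.26, adjusted p = 1.1e-09). All 3 were far lower on each OX array than on either Col-0 array. PER27 (AT3G01190) read 273 and 20.6 in OX and 5631 and 5573 in Col-0 (-5.77, SE 0.58, adjusted p = 2.0e-06). Its size rested on the OX array used, being -7.26 without OX replicate 1 and -4.28 without OX replicate 2.

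The other 8 of these falls are known here by locus only. AT5G44020 had the largest, with 49.6 and 1.79 in OX and 4748 and 5227 in Col-0 (-7.19, SE 0.39, adjusted p = 3.6e-09). It was -8.13 without OX replicate 1 and -6.25 without OX replicate 2. AT1G04040 read 143 and 39.5 in OX and 5847 and 5409.9 in Col-0, a change of -5.91 that became -6.67 and -5.15 without OX replicate 1 and 2. Both OX arrays were low for each of these loci, but they differed from each other. AT2G30930 changed by -6.42, AT1G62480 by -5.62, AT3G28550 by -5.32, AT1G12080 by -5.29, AT3G59370 by -5.13 and AT4G31470 by -5.12, and all 6 passed. AT3G59370 read 1.03 and 0.915 in OX and 485 and 694 in Col-0. No detection calls were used, and where OX signals lie near the floor the size and rank of a fall depend on the pseudocount. With a pseudocount of 1 and of 32 the change was -8.71 and -6.58 for AT5G44020, -8.29 and -6.38 for PER57, -8.41 and -5.20 for PER7 and -8.20 and -4.22 for AT3G59370, and each passed.

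The 12 largest rises, chosen in the same way, were smaller. AT5G01870 read 504 and 317 in OX and 3.57 and 4.1 in Col-0 (4.39, SE 0.31, adjusted p = 5.4e-08). AT3G55920 read 279.7 and 216 in OX and 5.69 and 2.86 in Col-0 (3.69, SE 0.18, adjusted p = 1.4e-09). Both were near the floor on the Col-0 arrays, and with a pseudocount of 1 and of 32 their changes were 6.37 and 3.59 for AT5G01870 and 5.60 and 2.94 for AT3G55920. UGT87A2 (AT2G30140), a UDP-glycosyltransferase, which moves a sugar onto small molecules, read 446 and 547 in OX and 46.3 and 60.3 in Col-0 (2.89, SE 0.23, adjusted p = 1.9e-07). AT3G07030 read 1787 and 2947 in OX, against 275 and 339.9 in Col-0 (2.84). AT1G20300 read 1194 and 1143 in OX and 198 and 195 in Col-0 (2.48). The other 7, AT5G05250, AT3G56360, AT3G27150, AT3G49710, AT4G29780, AT5G40490 and AT1G62860, changed by 4.17, 2.93, 2.65, 2.64, 2.59, 2.55 and 2.48.

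**Figure D2:**
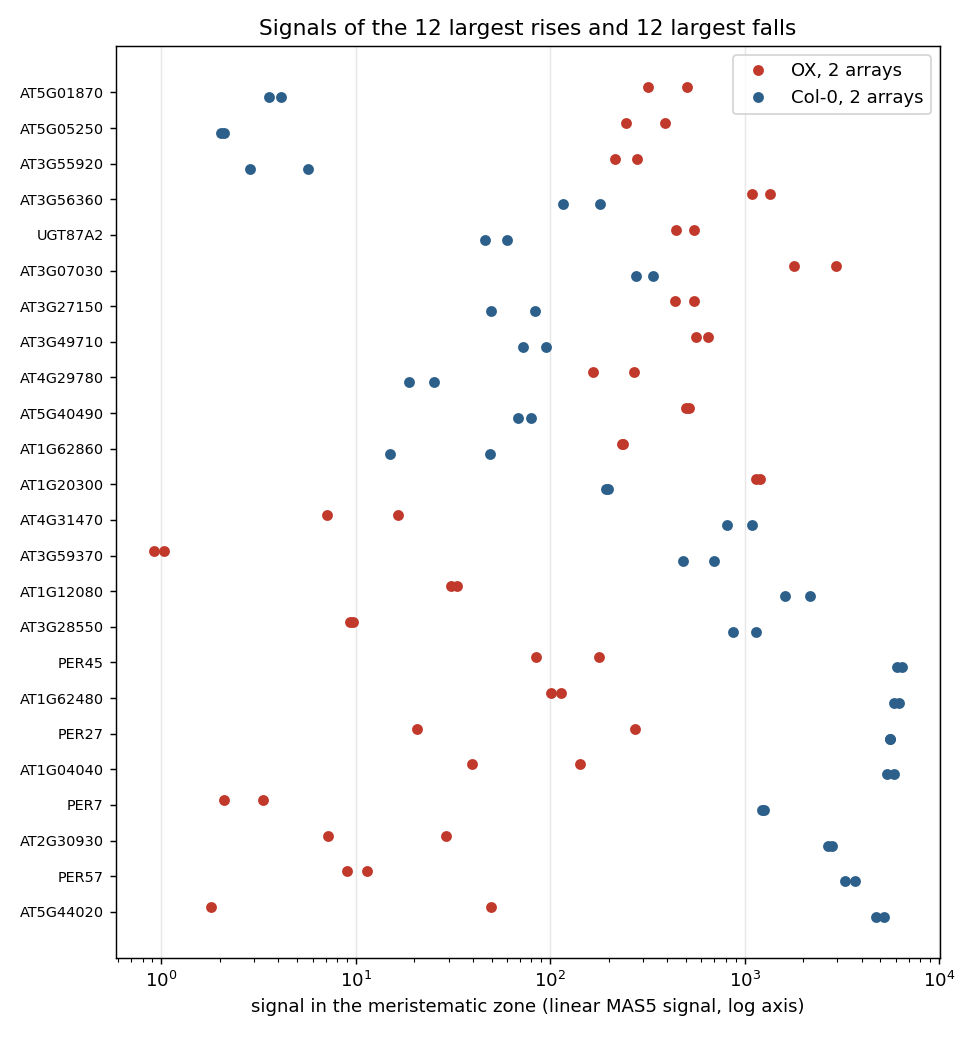
Signals in the meristematic zone (x axis, log scale) of the 12 genes with the largest rises and the 12 with the largest falls (y axis). Each point is 1 array. The genes were chosen to have no overlap between OX and Col-0 arrays, as held for 79.2% of all tested probe sets. PER57 sits at 11.4 and 8.99 in OX against 3693 and 3269 in Col-0.

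The gene lists were chosen with earlier results of these data known, so their shares beside those of all probe sets are a description. Class III peroxidases fell more often than they rose. Of 55 on the array, 33 were tested, and 21 of them (63.6%) fell while 2 rose, against 23.5% and 26% of all tested probe sets. The median change of the 33 was -1.83, against 0.10 over all probe sets, and 16 fell by at least 4-fold, a size that 3.95% of all probe sets reached. PER69 (AT5G64100) read 63.1 and 47.7 in OX and 1957 and 1478 in Col-0 (-4.60, SE 0.23, adjusted p = 1.4e-09). The 2 that rose, PER38 at 0.85 and PER63 at 0.54, are named after their values were seen. Neither rise held without Col-0 replicate 2 or without OX replicate 2.

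PER39, PER40 and PER57 are peroxidases that the study itself linked to UPB1 on these samples, so their direction is not independent evidence. PER39 (AT4G11290) read 73.6 and 33.0 in OX and 1225 and 1113 in Col-0 (-4.16, SE 0.24, adjusted p = 6.6e-09). PER40 (AT4G16270) read 3.52 and 24.6 in OX and 99.9 and 121 in Col-0 (-2.16, SE 0.28, adjusted p = 2.0e-05). In the elongation zone PER39 did not pass, with 2399 and 2234 in OX and 2169.7 and 2509 in Col-0.

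**Figure D3:**
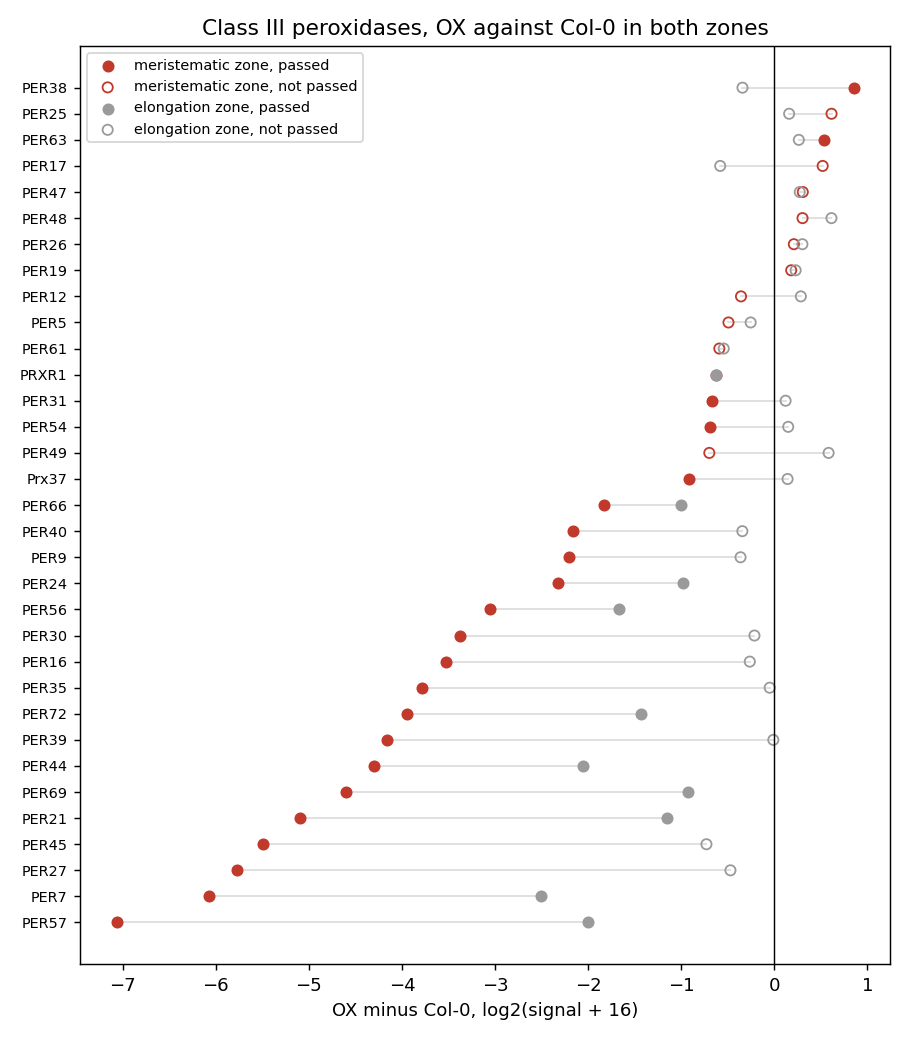
Change between OX and Col-0 on the log2(signal + 16) scale (x axis) of the 33 class III peroxidases tested (y axis), in the meristematic and the elongation zone. Filled points passed at an adjusted p below 0.05. In the meristematic zone 21 fell, down to -7.06 for PER57, and 10 fell in the elongation zone.

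Enzymes on both sides of reactive oxygen were among the falls. NADPH oxidases make superoxide at the cell surface. RBOHG (AT4G25090) read 1.97 and 1.6 in OX and 59.2 and 70.9 in Col-0 (-2.18), RBOHE (AT1G19230) changed by -1.58, and both passed. RBOHI did not pass, at -0.68. Methionine sulfoxide reductases, which repair oxidised methionine, fell for 4 of 5 tested. MSRB5 (AT4G04830) read 210.1 and 146 in OX and 867 and 1089 in Col-0 (-2.37, SE 0.18, adjusted p = 1.5e-07). Of 9 glutathione S-transferases, which join glutathione to reactive compounds, 4 (44.4%) fell and none rose at the threshold. Of all tested probe sets, 23.5% fell and 26% rose. GSTU28 (AT1G53680) had 41.9 and 18.3 in OX against 497 and 512 in Col-0 (-3.55).

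Of the 5 lists of genes that loosen or build the cell wall described here, 4 gave more falls than rises, and endoglucanases gave as many of each. All tested probe sets fell in 23.5% and rose in 26% of cases. Xyloglucan endotransglucosylases cut and rejoin the xyloglucan that ties cellulose together, and 4 of 6 tested fell, each by at least 4-fold. XTH18 (AT4G30280) read 26.4 and 7.19 in OX and 856 and 751 in Col-0 (-4.70, SE 0.25, adjusted p = 3.4e-09). XTH19 (AT4G30290) read 283 and 240.3 in OX and 1890.4 and 1808 in Col-0 (-2.75). XTH21 changed by -4.14 and XTH16 by -3.10. The groups did not overlap for any of the 4, as for all 625 falls of that size and 79.2% of all tested probe sets.

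Expansins loosen walls without cutting them. Of 14 tested, 7 (50%) fell and 1 rose. EXPB1 (AT2G20750) read 12.1 and 32.5 in OX and 1012 and 885 in Col-0 (-4.70, SE 0.24, adjusted p = 2.4e-09). EXPA9 (AT5G02260) read 632 and 598 in OX and 1783 and 1567 in Col-0 (-1.42). The rise was EXPA15, at 1.36, named after its value was seen, and 2 expansins rose without either Col-0 replicate. The root hair members EXPA7 and EXPA18 (AT1G62980) changed by -4.27 and -3.79. The endoglucanase GH9C1 (AT1G48930), of root hairs too, read 17.6 and 19.5 in OX and 354 and 375 in Col-0 (-3.46). SCN1 (AT3G07880), which restricts where hairs emerge, changed by -1.06, and so all 4 root hair genes tested fell.

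GH9 endoglucanases, which cut cellulose-like chains, gave 2 falls and 2 rises among 10 tested, with a median of -0.08. The falls were GH9C1 and GH9C2 (-0.80), and the rises were GH9B6 (AT1G23210) at 1.88 and GH9C3 (AT4G11050) at 0.86, named with GH9C2 as all members that passed. There was 1 rise without Col-0 replicate 2 and 1 fall without OX replicate 2.

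Of 8 tested genes of cellulose orientation and of cellulose- and glucomannan-synthase-like enzymes, 6 fell and 1 rose. COB (AT5G60920), an anchored protein that orients cellulose, read 322 and 358 in OX and 1774 and 1924 in Col-0 (-2.39, SE 0.16, adjusted p = 4.3e-08). CSLA03 (AT1G23480), a glucomannan synthase, read 20.7 and 3.94 in OX and 308 and 306 in Col-0 (-3.58). CSLC04 changed by -1.40 and CSLD2 by -1.22, with both passing. TBL proteins are linked to acetylation of wall polymers. Of 19 tested, 11 (57.9%) fell and 2 rose, with a median of -1.04. TBL38 changed by -3.86 and TBL21 (AT5G15890), at 20.3 and 4.37 in OX against 379 and 354 in Col-0, by -3.81. The 2 rises, TBL36 and TBL45, were both lost without Col-0 replicate 1 and without OX replicate 1.

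RALF peptides are secreted signals that restrain cell growth through receptor kinases of the wall. All 7 tested of 11 on the array fell, 5 by at least 4-fold, and their median was -2.67. Over all tested probe sets 23.5% fell, 3.95% by at least 4-fold, and the median was 0.10. RALFL22 read 107 and 154 in OX and 1226 and 1305 in Col-0 (-3.15, SE 0.24, adjusted p = 1.5e-07). RALFL33 (AT4G15800) read 253 and 229.9 in OX and 1184 and 900.0 in Col-0 (-2.03). RALFL32 changed by -2.86 and RALFL24 by -2.67. The 7 genes ran between -3.15 and -0.90.

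In 4 lists of the cytoskeleton and of transport to the cell surface, between 50% and 85.7% of the tested genes fell, against 23.5% of all tested probe sets. Tubulins form microtubules, and 6 of 7 fell. TUB1 (AT1G75780) read 221 and 188 in OX and 2935 and 3605 in Col-0 (-3.89, SE 0.19, adjusted p = 1.3e-09). TUB6 (AT5G12250) read 703 and 681 in OX and 2012 and 2130.3 in Col-0 (-1.56). Among microtubule-associated IQD, TRM and SP1L genes, 14 of 25 (56%) fell and 2 rose, led by IQD19 (AT4G14750), at 8.24 and 19.2 in OX against 267 and 259 in Col-0 (-3.26). Of 16 myosins and NET or LIM actin-binding genes, 8 fell and 2 rose. WLIM2b (AT3G55770), an actin-bundling protein, read 582 and 558 in OX and 2186 and 2423 in Col-0 (-1.98). The exocyst tethers vesicles at the plasma membrane and ESCRT sorts cargo for breakdown. Of 20 such genes, 12 (60%) fell and 2 rose, none of them by 4-fold. The rises were 1 without OX replicate 1 in the microtubule and in the actin list, 1 without Col-0 replicate 2 in the microtubule list, and 1 without any other array but OX replicate 1 in the exocyst and ESCRT list.

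Stress-related lists were uneven. Of 7 late embryogenesis, dehydrin and cold genes, which protect cells against drying, 6 fell and none rose at the threshold, with a median of -1.91. COR47 (AT1G20440) read 956 and 613 in OX and 3624 and 3593 in Col-0 (-2.21). AT1G54410 read 1416 and 1386 in OX against 5507 and 6724 in Col-0 (-2.11). ATG8 proteins mark the membranes of autophagy, the cell's self-digestion. In the ATG8 list 4 of 9 fell, with ATG8H (AT3G06420) at 58.7 and 68.6 in OX against 402 and 335 in Col-0 (-2.27). LCR68 (AT2G02130), of the defensin-like family, read 92.1 and 62.7 in OX and 1973 and 1898 in Col-0 (-4.40, SE 0.19, adjusted p = 5.4e-10). It was 1 of 2 falls among 4 tested members of its list, and 1 fall was left without any 1 of the 4 arrays. Of 5 WRKY transcription factors and of 5 calmodulin-like genes, 1 each (20%) fell, and of 8 U-box ubiquitin ligases 2 (25%) fell and 1 rose, close to the 23.5% of falls among all tested probe sets. Without OX replicate 2, 2 calmodulin-like genes fell. Of the U-box ligases 1 fell and none rose without Col-0 replicate 1 or OX replicate 1. The bZIP transcription factors gave 5 falls and 3 rises among 10, with 3 falls without either Col-0 replicate or OX replicate 1 and 1 rise without Col-0 replicate 1 or OX replicate 2. In the list of iron regulation and uptake, 4 of 11 fell and 1 rose, a rise kept only without OX replicate 1, and the transcription factor bHLH115 (AT1G51070) changed by -1.59.

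Genes of transcription and ribosome assembly went the other way. Of 13 tested genes of ribosome assembly and RNA polymerase I, the enzyme that transcribes ribosomal RNA, 8 (61.5%) rose and none fell at the threshold, against 26% and 23.5% of all tested probe sets. AT5G52820, listed in the gene table as NLE or NOTCHLESS, read 3543 and 3379 in OX and 793 and 667 in Col-0 (2.23, SE 0.20, adjusted p = 6.6e-07). NRPA2 (AT1G29940), a large subunit of RNA polymerase I, read 2586 and 2011 in OX and 606 and 490.3 in Col-0 (2.03). YAO (AT4G05410), a nucleolar protein, read 1605 and 1903 in OX and 596 and 567 in Col-0 (1.56). The count was 5 without any 1 of the 4 arrays.

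Subunits of RNA polymerases II to V rose for 7 of 10 tested, with a median of 0.90 and no fall at the threshold. Of all tested probe sets, 26% rose and 23.5% fell. The list holds 2 subunits of the plant enzymes IV and V, which act in gene silencing, of which NRPD7 rose (0.82) and NRPE7 did not pass (0.0063). NRPC2 (AT5G45140), a large subunit of RNA polymerase III, read 1179 and 1318 in OX and 398 and 359 in Col-0 (1.68, SE 0.26, adjusted p = 9.1e-05). NRPC1 changed by 1.22 and NRPB7 by 1.03. The count dropped to 4 without Col-0 replicate 2 or OX replicate 1. Splicing and LSM proteins were mixed, with 6 of 15 (40%) higher and 4 (26.7%) lower, the latter near the share of all tested probe sets.

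Ribosomal proteins did not follow the genes that assemble the ribosome. Of 117 tested cytosolic ribosomal protein genes, 40 (34.2%) fell and 8 (6.84%) rose, against 23.5% and 26% of all tested probe sets. Their median was -0.33. AT1G74270 showed the largest fall among them, at 779.8 and 744 in OX against 3718 and 3851 in Col-0 (-2.29). The rises were 8 in the full fit and 5 without OX replicate 1. Many of these genes have near-identical copies, so probe sets may read more than 1 of them.

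Genes of the cell cycle were split. Of 18 mitosis and cytokinesis genes, 5 (27.8%) rose and 3 (16.7%) fell, with a median of 0.38. The shares of all tested probe sets were close, at 26% and 23.5%. BUB3.1 (AT3G19590), of the spindle checkpoint, read 1169 and 1153 in OX and 407 and 329 in Col-0 (1.62, SE 0.19, adjusted p = 6.5e-06). Haspin (AT1G09450), a histone kinase of mitosis, changed by 1.34. The fall of ATMAP65-6 (AT2G01910), which bundles microtubules, was -1.94, with 92.5 and 125 in OX against 438 and 477 in Col-0. KEU (AT1G12360), of vesicle fusion at the cell plate, changed by -1.20. Of 7 DNA replication genes 4 rose, led by the histone chaperone ASF1B (AT5G38110), with 1218 and 996 in OX and 453 and 577 in Col-0 (1.08). That count was 2 without Col-0 replicate 1 or OX replicate 1. The histone gene HTB2 (AT5G22880) fell, at 214 and 242 in OX against 659 and 699 in Col-0 (-1.51).

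Metabolic genes were divided. Of all tested probe sets, 26% rose and 23.5% fell. Of 36 UDP-glycosyltransferases, 13 (36.1%) rose and 7 (19.4%) fell. IAGLU (AT4G15550), which joins glucose to the hormone auxin, read 1011 and 944 in OX and 179.6 and 157 in Col-0 (2.43, SE 0.24, adjusted p = 1.5e-06). In its list of auxin conjugation and synthesis genes 4 of 6 rose, 2 or fewer without any 1 of the 4 arrays. Serine carboxypeptidase-like genes gave 9 rises and 4 falls among 20. The rises were 5 without Col-0 replicate 1 or OX replicate 1, and the falls were 2 without Col-0 replicate 2 or OX replicate 2. Of 7 aldehyde dehydrogenases, which oxidise reactive aldehydes, 4 rose, and ALDH6B2 (AT2G14170) read 3099 and 3563 in OX and 1794 and 1695 in Col-0 (0.92). That count was 2 without Col-0 replicate 1 or OX replicate 2. Malate dehydrogenase, MDH (AT3G47520), read 2889.5 and 3653 in OX and 1534 and 1723 in Col-0 (0.99).

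Plastid-encoded genes fell more often than they rose, while 23.5% of all tested probe sets fell and 26% rose. Of 68 tested, 34 (50%) fell and 4 rose, with a median of -0.67, and the falls were 19 without Col-0 replicate 2. The rises were 2 without Col-0 replicate 1 or OX replicate 1. The ATP synthase gene atpB read 1305 and 1336 in OX and 4957 and 4304 in Col-0 (-1.79). The rise of psaB, of photosystem I, was 1.70, with 1667 and 1861 in OX against 483 and 585 in Col-0. In the elongation zone 15 of the 68 were higher in OX and none was lower at the threshold. Nuclear genes of green tissue had summed signals of 285 and 262 in OX and 320 and 376 in Col-0 meristematic pieces, over 9 tested of 12.

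**Figure D4:**
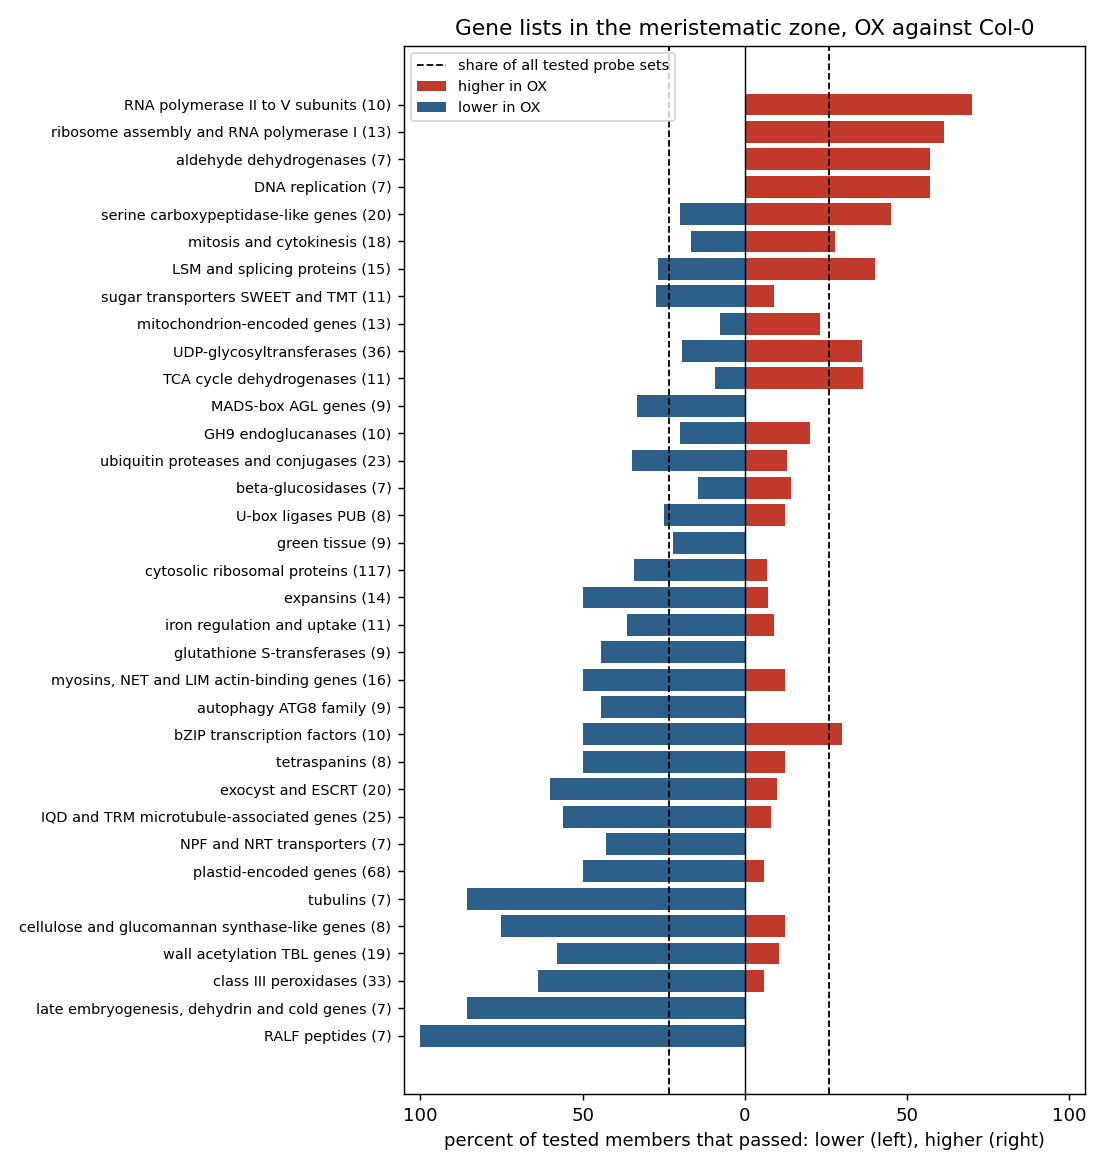
Percent of tested members that passed as lower (left) or higher (right) in OX than in Col-0 in the meristematic zone, for lists with 7 or more tested genes (number in brackets). Dashed lines give the share of all tested probe sets, 23.5% lower and 26% higher. RALF peptides lie at 100% lower, and RNA polymerase II to V subunits at 70% higher.

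The same genotypes were compared in the elongation zone on arrays that share none with the meristematic zone. Their mean control ratios lay close together, though those of single controls were less alike. There 2234 probe sets (14.1%) passed, 1052 higher and 1182 lower, of which 14 (0.0884%) rose and 37 (0.234%) fell by at least 4-fold. That count was 781 without OX elongation replicate 1 and 905 without Col-0 elongation replicate 1. Of the 625 falls of at least 4-fold in the meristematic zone, 252 (40.3%) were also lower at the threshold in the elongation zone, and 5 were higher. All tested probe sets were lower there in 7.46% of cases. Of the 96 rises of that size, 36 (37.5%) were also higher in the elongation zone, against 6.64% of all. The elongation change of the 625 had a median of -0.61. With only the 6 elongation arrays fitted, 780 probe sets passed in that zone in place of 2234.

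The change differed between the zones, by the test of the difference itself, for 3803 probe sets (24%). That count was 2361 without Col-0 meristematic replicate 1 and 2489 without Col-0 meristematic replicate 2. Among the 625 large falls it passed for 584 (93.4%), as a description, since they were chosen on part of that contrast. PER45 read 5242 and 7898 in OX and 9797 and 11641 in Col-0 elongation pieces, where it did not pass, and its zone difference was -4.76 (adjusted p = 1.2e-06). TUB1 read 3138 and 3189 in OX and 3483 and 4386 in Col-0 elongation pieces (zone difference -3.59, adjusted p = 9.1e-07). CSLA03, XTH16 and XTH19 likewise did not pass in the elongation zone, with changes of -0.03, 0.07 and 0.42. PER57 and PER7 were low in OX in both zones, with elongation changes of -2.01 and -2.51. AT4G29780 was higher in OX in both, by 2.59 in the meristematic and 2.01 in the elongation zone, with no zone difference past the threshold (adjusted p = 0.28).

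Some genes moved in opposite directions in the zones. Among the probe sets that passed in the meristematic zone, 88 of the falls (2.36%) were higher in OX in the elongation zone and 56 of the rises (1.36%) were lower there, against 6.64% and 7.46% of all tested probe sets. The same direction in both zones was commoner, with 785 of the falls (21.1%) and 596 of the rises (14.5%). AT4G11190 read 21.7 and 11.1 in OX and 118 and 92.0 in Col-0 in the meristematic zone, but 357 and 205 in OX and 45.1 and 86.9 in Col-0 in the elongation zone. AT1G43910 read 54.5 and 24.8 in OX and 205 and 184 in Col-0, but 956 and 615 in OX and 288 and 312 in Col-0 in the elongation zone. Both groups of arrays stood apart in each zone for these genes. AT5G44820, AT5G62210, psaJ and AT5G40590 had zone differences of -3.76, -3.57, -3.41 and -3.33. The meristematic change of AT5G40590, -1.57, became -2.17 without OX replicate 1 and -0.97 without OX replicate 2.

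**Figure D5:**
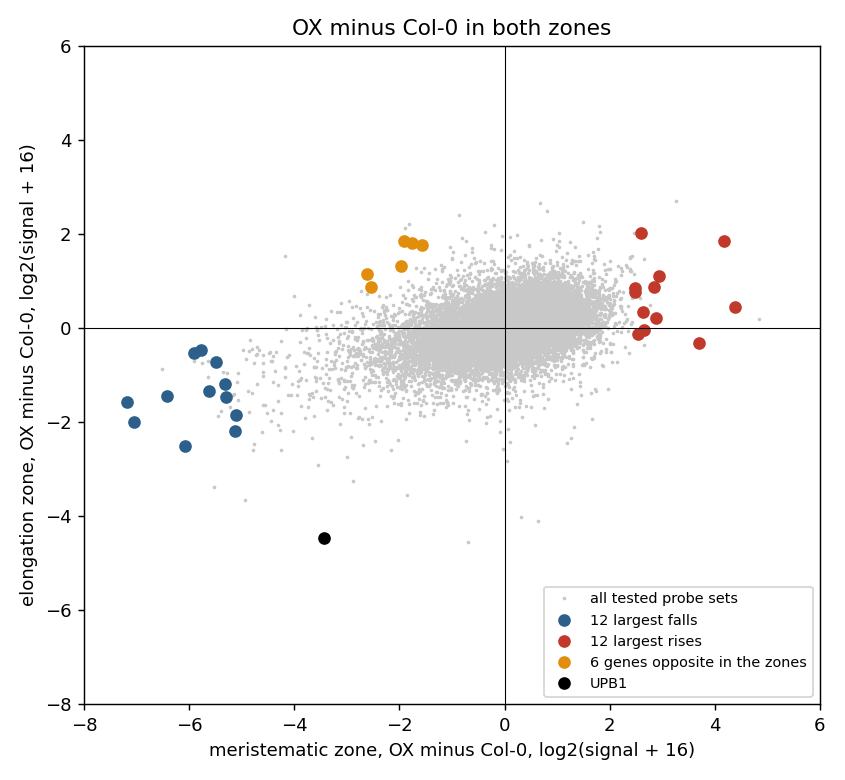
Change between OX and Col-0 on the log2(signal + 16) scale in the meristematic zone (x axis) and the elongation zone (y axis) for every tested probe set. The 12 largest meristematic falls were chosen on their x axis values, which lie between -7.19 and -5.12. Their y axis values lie between -2.51 and -0.47, and UPB1 lies at -3.44 and -4.46.

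The changed probe sets were placed on the axis between the zones with the upb1-1 arrays, which are not in the comparison. Of all tested probe sets, 24.1% were higher and 28.5% lower in the elongation zone of upb1-1 than in its meristematic zone. Of the 3722 falls, 1094 (29.4%) were higher and 1229 (33%) lower in upb1-1 elongation pieces. Of the 4112 rises, 933 (22.7%) were higher and 1138 (27.7%) lower there. In both sets, as over all tested probe sets, more were lower than higher there. The 625 large falls leaned to the elongation side, with 262 (41.9%) higher and 158 (25.3%) lower in upb1-1 elongation pieces. The 96 large rises had 23 (24%) higher and 25 (26%) lower.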

How the data were processed

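The deposited values are linear signal intensities per probe set, made by the authors with MAS5 (no version given), per the submitters' processing notes. The deposited table scales every array to a 2% trimmed mean near 250.03, and no detection calls were used here. Depth has no counterpart on arrays, and 2 arrays a group limit the precision.

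Signals were taken as log2(signal + 16). Tested were probe sets at or above the array's 40th percentile on at least 2 of 12 arrays. limma 3.58.1 in R 4.3.3 fitted 6 group means on all 12 arrays with eBayes and a variance trend, and p-values were adjusted by Benjamini-Hochberg over the 15834 tested probe sets of each contrast. The fit was tested on simulated data. Alternatives were other pseudocounts, filters and normalizations, fewer arrays, no trend, a replicate block, and leaving out each array.

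Names came from the platform annotation, with 13513 probe sets of 1 gene, 503 of several and 8794 unnamed here, and from a TAIR10.1 gene table. PER numbers and RBOH names were assigned by locus from standard nomenclature, not from these tables. For lists, the brightest tested probe set stood for a gene. Named genes were the 12 largest rises and 12 largest falls among single-gene calls. These had no overlap of arrays and exceeded the median signal of 147 in the brighter group. Added were up to 4 members of each of 60 lists by smallest p in the meristematic zone, or 2 where none passed. To these came 6 genes opposite in the zones, UPB1, PER39, PER40 and PER57. Genes of the highest mean signal, also planned, were not drawn, as levels of different probe sets are not comparable. Not all of the named genes are printed. The comparison, its lists and rules were chosen with earlier results of these data known, and the lists were redrawn to the names the annotation holds. Sequences were not analysed here.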

Additional observations from a re-analysis of the deposited data

Results flagged for a closer look

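The OX change differed between the meristematic and the elongation zone, by the interaction term of the limma fit, for 3803 probe sets (24%). It did so for 116 of the 218 genes named from the lists. Those genes were chosen by smallest p in the meristematic zone, which is part of this contrast, so their count is a description only. The values that follow are the OX minus Col-0 change in the meristematic zone minus that in the elongation zone, on the log2 scale. The largest falls and rises were chosen on part of this difference, and the genes with opposite directions on its size. For these genes its size is a description only. Among the largest falls it was -5.61 for AT5G44020, -5.05 for PER57, -4.99 for AT2G30930, -3.57 for PER7, -5.38 for AT1G04040, -5.30 for PER27, -4.28 for AT1G62480 and -4.76 for PER45. For AT3G28550, AT1G12080, AT3G59370 and AT4G31470 it was -4.13, -3.83, -2.95 and -3.28. The peroxidases PER39 and PER40 gave -4.15 and -1.82.

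Among the largest rises the difference was 3.94 for AT5G01870, 2.33 for AT5G05250, 4.02 for AT3G55920, 1.82 for AT3G56360, 2.67 for UGT87A2, 1.97 for AT3G07030 and 2.70 for AT3G27150. It was 2.31 for AT3G49710, 2.67 for AT5G40490, 1.64 for AT1G62860 and 1.72 for AT1G20300. Genes with opposite directions in the zones gave -3.77 for AT4G11190, -3.76 for AT5G44820, -3.57 for AT5G62210, -3.41 for psaJ, -3.33 for AT5G40590 and -3.28 for AT1G43910. The mean 3' to 5' control ratio differed between OX and Col-0 arrays in the meristematic zone and lay close in the elongation zone. Its part in these differences was not tested. No group held enough arrays to single out 1 of them.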

How the results depend on the processing

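The count of 7834 changed probe sets lay between 6597 and 9457 under the other scales, filters, normalizations and fits, and between 5874 and 6277 when 1 of the 4 arrays was left out. The UPB1 difference kept its direction and its call in every alternative run, between -3.88 and -3.10. Falls of at least 4-fold numbered 1050 with a pseudocount of 1, and rises of that size 311 with a pseudocount of 1 and 57 with 32. Of the 625 falls and 96 rises of that size with the pseudocount of 16, 252 and 36 were also called the same way in the elongation zone, a comparison added after seeing the data. Over the falls alone, the share higher in upb1-1 elongation pieces was 29.4%, and 41.9% among large falls.

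The elongation count of 2234 was 780 with only the 6 elongation arrays and between 781 and 1588 without 1 array. The zone difference count of 3803 lay between 2361 and 3493 without 1 array. The control ratio difference of 1.95 was 2.33 for GAPDH, 1.35 for actin, 2.16 for ubiquitin and 1.83 with a pseudocount of 16, and between 1.89 and 2.00 without 1 array. Median centring moved the median change of all probe sets to 0.15.

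Of 211 named genes that passed, 38 lost the call in at least 1 alternative. Of genes that did not pass, the direction turned for JKD, which lay between -0.22 and 0.031 without 1 array, GUT2 (between -0.13 and 0.024), CLE41 (between -0.062 and 0.72), PDF1.2 (between -0.57 and 0.054) and ACLA-1 (between -0.15 and 0.094, 0.035 with quantile normalization and 0.015 with median centring). The cause was not tested.

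Both genotypes have replicates numbered 1 and 2, which does not pair them, and their deviations correlated at 0.03. With the replicate number as a block, 7884 meristematic probe sets passed, with 2315 for the elongation zone and 3865 for the zone difference, and the UPB1 difference was -3.44. Promoter motifs were not run, as no sequences were used here. The compression of dim probe sets limits the size of large falls.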
